A study of Oryza sativa with 12 samples.

Results

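Leaves of the rice NAD kinase mutant *osnadk1* and of its wild-type parent (WT) were compared after 15 days without watering. This comparison rests on the 6 arrays of droughted plants, 3 of *osnadk1* and 3 of WT, out of the 12 arrays of the series. The arrays were assigned by their labels, genotype *osnadk1* or wild type with drought as the treatment. Both genotypes are *Oryza sativa* ssp. *japonica* cultivar Dongjin, and *osnadk1* is a single homozygous T-DNA line with the insertion in an intron of OsNADK1, so that an effect of that 1 line and an effect of the lost gene cannot be told apart. Plants of both genotypes shared pots, were 2.5 months old, and were sampled at their youngest expanded leaf when soil moisture had gone from 47.3% at day 0 to 8.5% at day 15. The other 6 arrays hold the same genotypes at day 0 and serve below for a side-by-side value under normal growth. WT arrays carry a label of re-analysis. The question was how loss of OsNADK1 changes the leaf transcriptome of plants under water deficit.

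NAD kinases add a phosphate to NAD and so make NADP, the carrier that photosynthesis and the oxidative pentose phosphate pathway reduce to NADPH. NADPH in turn feeds the reductases of the ascorbate-glutathione cycle, the thioredoxin system, proline synthesis and the NADPH oxidases that make signalling hydrogen peroxide. In drying rice leaves, abscisic acid and calcium signals act through NAC, DREB and MYB factors, and protective products such as dehydrins, small heat shock proteins and raffinose family sugars accumulate.

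Each value below is a log2 MAS5 signal of 1 probe set on an Affymetrix rice genome array, and each difference is *osnadk1* minus WT on that log2 scale, given with its standard error. The array labels begin with 1 of 2 prefixes, called jobs A and B here, and what else separates them is not given in the sources used here. Job A holds *osnadk1* replicates 1 and 2 with WT replicate 1, and job B holds *osnadk1* replicate 3 with WT replicates 2 and 3, so the difference is the mean of the differences within the jobs. Across the 28852 probe sets tested, arrays of 1 job were alike (Pearson's r of 0.973 between *osnadk1* replicates 1 and 2, 0.967 between WT replicates 2 and 3), *osnadk1* replicate 3 lay nearer to WT replicate 3 of its own job (0.961) than to *osnadk1* replicates 1 and 2 (0.950 and 0.945), and the first principal component, with 40.9% of the variance, separated the jobs. The 3′ over 5′ signal of the GAPDH control, a sign of RNA quality, was 0.84 to 1.56 log2 units in *osnadk1* and 1.02 to 1.58 in WT. That of the actin control was 3.37 to 3.87 in *osnadk1* and 3.32, 3.92 and 4.79 in WT replicates 1, 2 and 3, and that of ubiquitin -0.41 to -0.20 and -0.35 to -0.22. Array medians were 5.18 to 5.43. Defining markers of leaf mesophyll were high, 3 of 4 light-harvesting and RuBisCO small subunit genes lying above the array median in both genotypes. The summed linear signal ran from 63306 to 80036 in *osnadk1* and from 78592 to 90922 in WT for the mesophyll genes, from 11703 to 14453 and from 12536 to 13794 for 19 genes of dividing cells (4 below the median on all 3 *osnadk1* arrays, 6 on all 3 WT arrays), from 749.9 to 1487 and from 596 to 1004 for 6 root genes (2 below it in each genotype), from 4830 to 5145 and from 4544 to 6379 for 4 sucrose transporters, and from 9849 to 12091 and from 9951 to 11927 for the 2 senescence genes. The part of these cell types and of RNA quality in the results was not tested.

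OsNADK1 (Os01g0957000, chromosome 1), the disrupted gene, was measured at 5.65, 5.45 and 4.39 in *osnadk1* and 9.43, 9.53 and 9.47 in WT. The genotypes were far apart, with 3.78 log2 units between the closest arrays, and OsNADK1 fell, with a difference of -4.50 ± 0.38 (limma, adjusted p = 0.00148), -3.88 in job A and -5.11 in job B. Replicate 3 of the mutant was the 1 array below its own median, a level that stands in for background here in the absence of detection calls. The paper reports no OsNADK1 transcript in this homozygous line by PCR. For the other genes below, a changed level in each cell and a changed number of cells that hold the transcript cannot be told apart in bulk leaf RNA. The 10 loci on each side of OsNADK1 in the reference order held 7 other genes with a tested probe set, and limma called 0 of these at an adjusted p of 0.05, the lowest being 0.385 for LOC4325410.

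At an adjusted p under 0.05 in limma, 29 of the 28852 probe sets tested differed between the genotypes under drought (0.101%), 18 of them higher in *osnadk1* (0.0624%) and 11 lower (0.0381%). At the study's own threshold of 2-fold and an unadjusted p of 0.05, 410 were higher (1.42%) and 322 lower (1.12%), together 2.54%, and 9.46% had an unadjusted p of 0.05 or less in either direction. The 3 *osnadk1* arrays did not overlap the 3 WT arrays at 15.7% of the probe sets tested, 9.00% with *osnadk1* higher and 6.75% lower. All 29 called probe sets were among these, which the test itself favours. The median difference over all tested was 0.00.

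**Figure D1:**
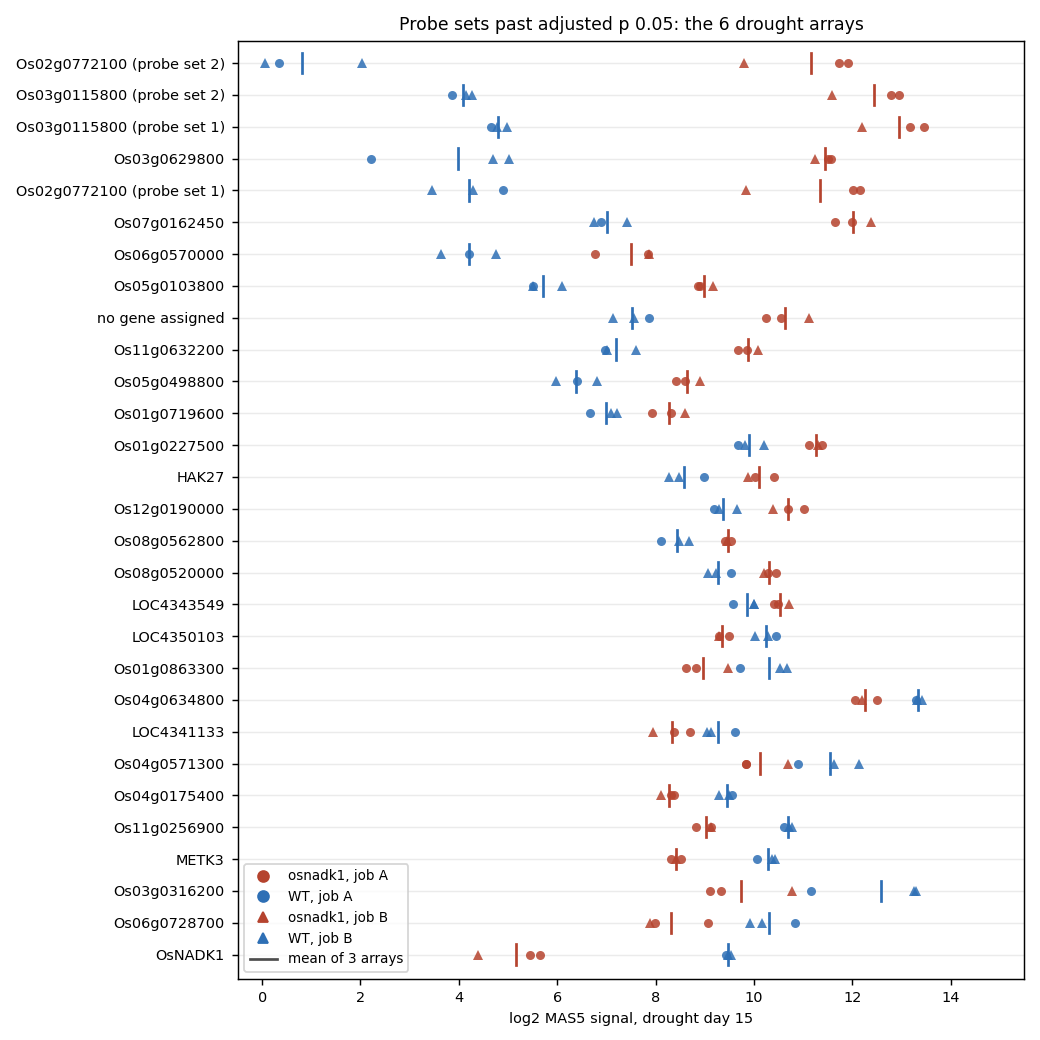
Log2 MAS5 signal of each of the 29 probe sets past an adjusted p of 0.05 on the 6 drought arrays (x axis), 1 row per probe set, with red for *osnadk1*, blue for WT, circles for job A, triangles for job B and a bar at the mean of 3 arrays. In every row the red and blue points keep apart, which the choice by adjusted p favours. The closest pair of arrays lies 7.76 log2 units apart in the top row, Os02g0772100, and 0.21 apart at Os04g0571300.

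The genes called lower included 2 MYB factors, DNA-binding proteins of a large plant family. Os06g0728700 on chromosome 6 was at 9.07, 7.99 and 7.88 in *osnadk1* and 10.84, 10.17 and 9.93 in WT. Its lowest WT array was 0.86 log2 units above its highest *osnadk1* array, and it fell, with a difference of -2.24 ± 0.27 (limma, adjusted p = 0.0216), -2.31 in job A and -2.17 in job B. The second, Os01g0863300 on chromosome 1, was at 8.82, 8.61 and 9.47 in *osnadk1* and 9.72, 10.66 and 10.54 in WT. The closest arrays of the genotypes were *osnadk1* replicate 3, the highest of its group, and WT replicate 1, the lowest of its group, and the difference was -1.07 ± 0.15 (limma, adjusted p = 0.0323). Under normal growth the same differences were 0.56 ± 0.27 and -0.51 ± 0.15. At day 0 Os06g0728700 was far higher in job A than in job B, at 13.7, 13.8 and 7.7 in *osnadk1* and 13.6, 6.9 and 6.7 in WT. Os04g0571300 (chromosome 4), an F-box gene annotated after Arabidopsis PP2-A13, belongs to the family whose products pick targets for a ubiquitin ligase. It was at 9.84, 9.84 and 10.68 in *osnadk1* and 10.89, 11.63 and 12.14 in WT, with job A arrays lower than job B arrays in both genotypes, and fell (-1.13 ± 0.15, limma, adjusted p = 0.0316).

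Among enzyme genes, galactinol synthase 3 (Os03g0316200, chromosome 3), which makes the galactosyl donor of raffinose family sugars, was at 9.34, 9.10 and 10.77 in *osnadk1* and 11.17, 13.29 and 13.26 in WT. WT replicates 2 and 3 reached about 13.3 while the highest mutant array stayed below 11, and the gene fell (-2.23 ± 0.32, limma, adjusted p = 0.0449). METK3 (Os01g0293000, chromosome 1) encodes an S-adenosylmethionine synthetase, the source of the methyl donor of plant cells and of the precursor of ethylene and polyamines. Its arrays were at 8.52, 8.31 and 8.42 in *osnadk1* and 10.07, 10.42 and 10.38 in WT, tight within each genotype, and it fell (-1.82 ± 0.16, limma, adjusted p = 0.00219). Os11g0256900, annotated as a benzoate carboxyl methyltransferase, an enzyme type that uses S-adenosylmethionine, was at 9.13, 8.81 and 9.14 in *osnadk1* and 10.60, 10.71 and 10.78 in WT. Its groups were as tight and it fell (-1.62 ± 0.21, limma, adjusted p = 0.029).

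The other 4 that fell have no product described in the tables used here. Os04g0175400 was at 8.30, 8.37 and 8.12 in *osnadk1* and 9.56, 9.30 and 9.49 in WT, a difference of -1.25 ± 0.14 (limma, adjusted p = 0.0103). Os04g0634800 was at 12.50, 12.05 and 12.20 in *osnadk1* and 13.30, 13.32 and 13.41 in WT, with -1.09 ± 0.13 (limma, adjusted p = 0.0216). In both the spread within a genotype was under 0.5 log2 units and the gap between genotypes wider. LOC4341133 (chromosome 6) was at 8.70, 8.37 and 7.95 in *osnadk1* and 9.61, 9.12 and 9.05 in WT, with -1.11 ± 0.15 (limma, adjusted p = 0.0323), and LOC4350103 (chromosome 11) at 9.49, 9.28 and 9.28 in *osnadk1* and 10.45, 10.29 and 10.02 in WT, with -0.97 ± 0.13 (limma, adjusted p = 0.0326). The gene next to LOC4341133 in the reference order, LOC4341132, was at 4.72, 4.83 and 7.86 in *osnadk1* and 7.91, 9.61 and 10.67 in WT. It did not pass, at -2.71 ± 0.53 (limma, adjusted p = 0.113). Its groups did not overlap, which the rule that picked it asked for, with WT replicate 1 and *osnadk1* replicate 3 almost level at 7.91 and 7.86.

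Transport and metabolism genes were among those that rose. HAK27 (Os03g0574900, chromosome 3) belongs to the HAK family that takes potassium into cells, and was at 10.02, 10.42 and 9.88 in *osnadk1* and 8.99, 8.27 and 8.49 in WT. The lowest mutant array stood 0.89 above the highest WT array, and HAK27 rose by 1.37 ± 0.17 (limma, adjusted p = 0.0216). Os08g0562800, a MATE efflux gene annotated after TRANSPARENT TESTA 12, which in Arabidopsis moves flavonoids into the vacuole, was at 9.54, 9.42 and 9.44 in *osnadk1* and 8.12, 8.68 and 8.49 in WT. The mutant arrays differed by no more than 0.12 among themselves, and the gene rose by 1.11 ± 0.16 (limma, adjusted p = 0.0449). A mitochondrial carrier gene, Os08g0520000, of the family that exchanges metabolites across the inner membrane, was at 10.29, 10.45 and 10.21 in *osnadk1* and 9.53, 9.22 and 9.07 in WT. It rose by 0.95 ± 0.12 (limma, adjusted p = 0.029), while under normal growth its difference was -0.46 ± 0.12.

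Os12g0190000 (chromosome 12) is annotated as VTC2, in Arabidopsis the GDP-L-galactose phosphorylase of ascorbate synthesis, and was at 11.03, 10.68 and 10.38 in *osnadk1* and 9.19, 9.29 and 9.65 in WT. It rose by 1.29 ± 0.18 (limma, adjusted p = 0.0449), 1.66 in job A and 0.91 in job B, without overlap. Os01g0227500 (chromosome 1), a cytochrome P450 of the CYP71 family, was at 11.12, 11.38 and 11.30 in *osnadk1* and 9.67, 10.20 and 9.82 in WT. It rose by 1.43 ± 0.19 (limma, adjusted p = 0.0306), 1.57 in job A and 1.29 in job B. The gene of a metal ion binding protein, Os01g0719600 (chromosome 1), was at 8.32, 7.92 and 8.59 in *osnadk1* and 6.67, 7.09 and 7.22 in WT and rose by 1.44 ± 0.17 (limma, adjusted p = 0.0215). LOC4343549 (chromosome 7), with no described product, was at 10.41, 10.50 and 10.71 in *osnadk1* and 9.58, 10.00 and 10.00 in WT and had the smallest called rise, 0.79 ± 0.10 (limma, adjusted p = 0.029).

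The largest rises were at loci annotated as expressed or hypothetical proteins. Os03g0115800 (chromosome 3), annotated with a domain of unknown function, was at 12.79, 12.96 and 11.60 in *osnadk1* and 3.85, 4.26 and 4.14 in WT on 1 probe set and at 13.18, 13.45 and 12.20 in *osnadk1* and 4.65, 4.78 and 4.97 in WT on the other. All 3 WT arrays were under their medians there, so that the gene was at least 144-fold and at least 202-fold higher in *osnadk1* (limma, adjusted p = 2.36e-05 and 1.07e-06). Such a bound sets the mean of the mutant arrays against the mean of the WT array medians. Os02g0772100 was at 11.74, 11.92 and 9.80 in *osnadk1* and 0.34, 0.07 and 2.04 in WT on 1 probe set, at least 58.4-fold higher (limma, adjusted p = 0.029), and at 12.02, 12.15 and 9.84 in *osnadk1* and 4.90, 3.46 and 4.28 in WT on the other, at least 66.4-fold higher (limma, adjusted p = 0.00148). On both probe sets *osnadk1* replicate 3 was about 2 log2 units under the other mutant arrays. The probe set listed as Os03g0629800, which the reference places on chromosome 6, was at 11.51, 11.57 and 11.24 in *osnadk1* and 2.21, 5.02 and 4.69 in WT, at least 71.4-fold higher (limma, adjusted p = 0.00148). The probe sets of Os03g0115800, Os02g0772100 and Os03g0629800 passed the filter on low values, and so were tested, through the *osnadk1* arrays alone.

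Os07g0162450 was at 11.64, 11.99 and 12.38 in *osnadk1* and 6.88, 7.42 and 6.75 in WT and rose by 5.12 ± 0.21 (limma, adjusted p = 7.08e-06), 4.93 in job A and 5.30 in job B. Os05g0103800 was at 8.90, 8.85 and 9.18 in *osnadk1* and 5.51, 6.10 and 5.50 in WT and rose by 3.37 ± 0.28 (limma, adjusted p = 0.00148), and Os11g0632200 was at 9.67, 9.86 and 10.09 in *osnadk1* and 6.98, 7.00 and 7.60 in WT and rose by 2.79 ± 0.21 (limma, adjusted p = 0.000885). A probe set to which no gene is assigned was at 10.54, 10.25 and 11.12 in *osnadk1* and 7.86, 7.13 and 7.56 in WT, a rise of 3.15 ± 0.27 (limma, adjusted p = 0.00148). In each of these the mutant arrays stayed within 1 log2 unit of each other. Os06g0570000 was at 6.77, 7.84 and 7.86 in *osnadk1* and 4.20, 4.76 and 3.64 in WT, with every WT array below its median, and was at least 4.61-fold higher (limma, adjusted p = 0.0282). It too passed the filter on low values through the *osnadk1* arrays alone.

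A transposon-derived transcript stood among them. Os05g0498800, annotated as a transposon protein, was at 8.60, 8.42 and 8.90 in *osnadk1* and 6.39, 6.81 and 5.97 in WT and rose by 2.32 ± 0.28 (limma, adjusted p = 0.0216). Another one, Os10g0515400, was at 10.41, 10.31 and 7.57 in *osnadk1* and 4.85, 5.08 and 3.51 in WT, at least 17.7-fold higher without passing the test (limma, adjusted p = 0.139), its replicate 3 nearly 3 log2 units under the other mutant arrays. The CW-type zinc finger gene Os05g0371100 was at 7.82, 8.53 and 7.97 in *osnadk1* and 4.37, 4.47 and 3.55 in WT, at least 7.07-fold higher and just short of the threshold (limma, adjusted p = 0.0519), and Os09g0463800 was at 8.33, 8.15 and 7.14 in *osnadk1* and 3.61, 5.27 and 3.02 in WT, at least 6.01-fold higher (limma, adjusted p = 0.0862). Neither overlapped WT, which the rule that picked them asked for. Both, like Os10g0515400, passed the filter on low values through the *osnadk1* arrays alone. The lack of overlap is therefore no further support. Linalool synthase OsLIS (LOC4328124, chromosome 2), which makes a volatile monoterpene alcohol, was at 7.02, 6.60 and 8.78 in *osnadk1* and 3.01, 5.87 and 5.77 in WT, a difference of 3.38 ± 1.28 (limma, adjusted p = 0.423), with WT replicate 1 about 3 log2 units below the other WT arrays.

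**Figure D2:**
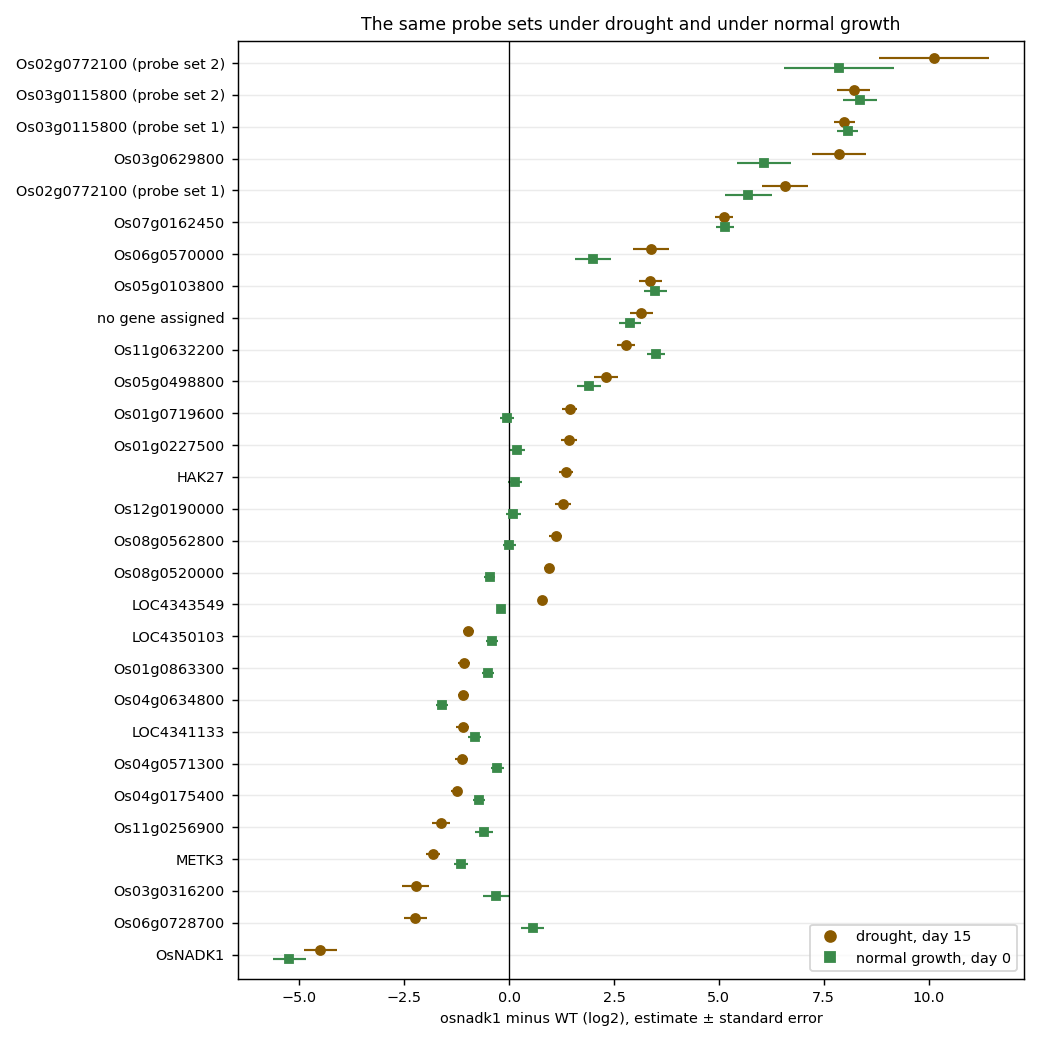
Estimated difference of *osnadk1* minus WT on the log2 scale (x axis, point ± standard error) for the 29 probe sets past an adjusted p of 0.05 under drought, 1 row each, with brown circles for drought day 15 and green squares for normal growth at day 0. The rows with the largest rises have both points far from 0 on the same side, whereas HAK27, Os08g0562800 and Os01g0719600 have the normal growth point at 0.15, 0.01 and -0.05.

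Set beside day 0, the 29 fell into those with a like difference in watered plants and those without. The day 0 arrays divide between the jobs as the drought arrays do, so these values too rest on 1 array of a genotype in each job. Some genes, Os06g0728700 and Os12g0190000 among them, were far higher in job A than in job B at day 0. Of the 29, 14 were 2-fold or more apart in the same direction under normal growth, and 13 passed an adjusted p of 0.05 in limma there with the same sign. OsNADK1 was at -5.24 ± 0.38 under normal growth, Os07g0162450 at 5.14 ± 0.21, Os05g0103800 at 3.48 ± 0.28 and METK3 at -1.16 ± 0.16. By contrast Os12g0190000 was at 0.10 ± 0.18, the P450 gene at 0.20 ± 0.19, galactinol synthase 3 at -0.30 ± 0.32 and Os04g0571300 at -0.28 ± 0.15. The test of the difference between the conditions passed an adjusted p of 0.05 in limma for 0 of 28852 probe sets (0.00%), with 7.35% at an unadjusted p of 0.05. The lowest adjusted p among the 29 was 0.0991, at Os08g0520000, followed by 0.131 at Os06g0728700, 0.151 at LOC4343549 and 0.176 at Os01g0719600, so none of the 29 is shown to be particular to drought.

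**Figure D3:**
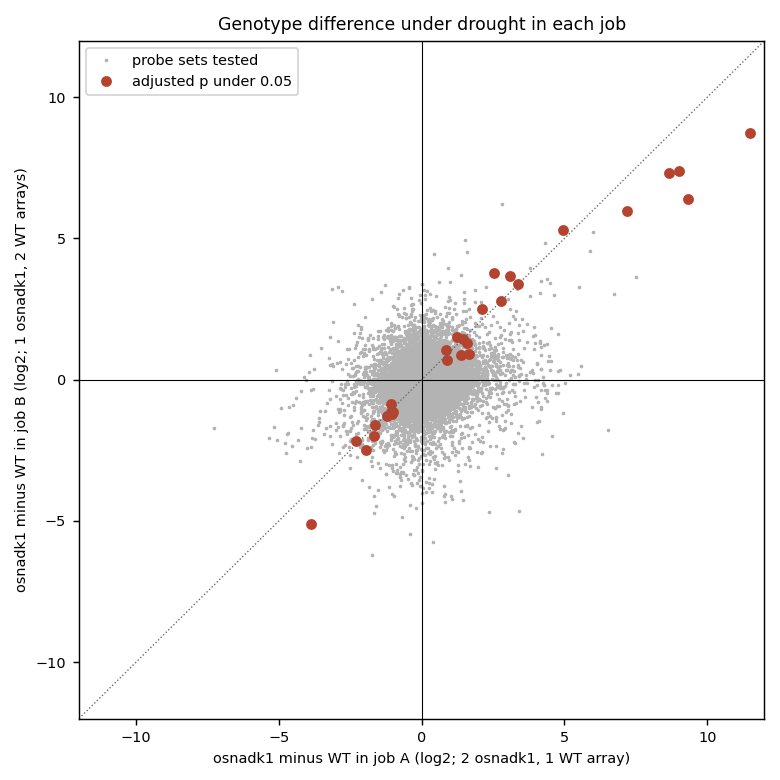
Difference of *osnadk1* minus WT in job A (x axis, mean of 2 *osnadk1* arrays minus 1 WT array) and in job B (y axis, 1 *osnadk1* array minus the mean of 2 WT arrays), both on the log2 scale, for the 28852 probe sets tested (grey) and the 29 past an adjusted p of 0.05 (red), with a dotted line where the jobs are equal. The red points lie along the dotted line while the grey cloud has the same sign in both jobs at 54.8% of the probe sets.

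The sign of the difference was the same in both jobs at 54.8% of the probe sets tested, and at all 29 called ones, which the test itself favours. With the arrays of job A alone, 116 probe sets passed an adjusted p of 0.05 in limma, 93 of them higher in *osnadk1*, and with those of job B alone 11 passed, 7 of them higher. Of the 29, 16 were also called in job A alone and 6 in job B alone. With 1 array of a genotype in each job these fits assume that the lone array varies like the other groups of the job, and they were chosen after seeing the data. Leaving out 1 drought array changed the count of calls to 9 without *osnadk1* replicate 1, 7 without replicate 2, 21 without replicate 3, and 12, 15 and 30 without WT replicates 1, 2 and 3. Without *osnadk1* replicate 3 the drought difference comes from job A alone, and without WT replicate 1 from job B alone. The differences of those fits are therefore not separate from those of 1 job. OsNADK1, Os07g0162450, Os11g0632200, Os05g0103800 and the probe set without a gene passed the threshold with each of the 6 arrays left out in turn, and METK3 with 5 of them. A further 6 of the 29, those below the array median on all 3 WT arrays, were not tested with an *osnadk1* array left out, since the filter on low values asks for 3 arrays at or above the median, and so count among the calls lost there. With a WT array left out, both probe sets of Os03g0115800 and that of Os03g0629800 passed in all 3 fits (limma, highest adjusted p of 0.0183), Os06g0570000 and 1 probe set of Os02g0772100 in 2, and the other probe set of Os02g0772100 in 1. In contrast, 8 called genes, tested in all 6 of these fits, lost the call whichever array was left out, namely the MYB gene Os01g0863300, galactinol synthase 3, the methyltransferase Os11g0256900, the P450 Os01g0227500, the carriers Os08g0520000 and Os08g0562800, LOC4341133 and LOC4343549, all with the same sign as before.

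Over all probe sets tested, 306 with an annotated gene were 2-fold or more apart at an unadjusted p of 0.05, did not overlap between genotypes and had a mean at or above the mean array median, 186 of them higher in *osnadk1* and 120 lower. Of the 12 lowest of these, 4 are described above, and none of the other 8 passed the adjusted threshold. LOC4324060 (chromosome 1) was at 6.23, 3.74 and 9.57 in *osnadk1* and 9.77, 11.55 and 12.06 in WT, -3.52 ± 1.19 (limma, adjusted p = 0.367), with job A arrays far below job B arrays in the mutant. Os05g0380300, annotated as the disease resistance protein RGA4, was at 4.54, 4.63 and 4.70 in *osnadk1* and 7.47, 6.82 and 7.75 in WT with every mutant array below its median, so that it was at least 4.14-fold lower (limma, adjusted p = 0.0717). Wall-associated receptor kinase OsWAK29 (Os04g0127500) was at 3.57, 4.95 and 4.60 in *osnadk1* and 6.92, 6.76 and 6.04 in WT, at least 2.42-fold lower (limma, adjusted p = 0.155). Both had a gap of more than 1 log2 unit between the closest arrays of the genotypes. They were picked for not overlapping and passed the filter on low values through the WT arrays alone, so the gap is no further support. Os02g0538700, a gene with a harpin-induced domain, was at 5.39, 4.34 and 6.89 in *osnadk1* and 7.54, 8.94 and 9.43 in WT, -2.49 ± 0.60 (limma, adjusted p = 0.203), and the CASP-like membrane protein gene OsCASPL3A1 at 5.78, 5.49 and 2.16 in *osnadk1* and 6.62, 6.16 and 6.43 in WT, -2.56 ± 0.86 (limma, adjusted p = 0.364). In the latter *osnadk1* replicate 3, at 2.16, was far below the other mutant arrays, and the differences were -0.98 in job A and -4.14 in job B. LOC4343997 was at 7.80, 7.87 and 6.54 in *osnadk1* and 9.90, 10.10 and 8.01 in WT (-2.29 ± 0.53), LOC4334592 at 3.71, 3.57 and 4.71 in *osnadk1* and 5.81, 7.91 and 6.31 in WT (at least 2.6-fold lower) and Os07g0516400 at 3.59, 3.73 and 4.82 in *osnadk1* and 5.91, 7.23 and 7.86 in WT (at least 3.26-fold lower), all 3 at limma adjusted p of 0.186 or more.

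Gene families were grouped by name, with the probe set of the highest mean for each gene. Over all 14893 genes tested this way the median difference was 0.00, with 8 higher and 10 lower at an adjusted p of 0.05, and 2.24% past the study's threshold. With no overlap between genotypes, *osnadk1* was higher at 1407 of these genes (9.45%) and lower at 1171 (7.86%). Where job medians are given, job A comes first. Counts and medians of the families carry no test. With all probe sets of each gene, 4 family medians moved by at least the pooled standard deviation of the family's median level on single arrays.

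**Figure D4:**
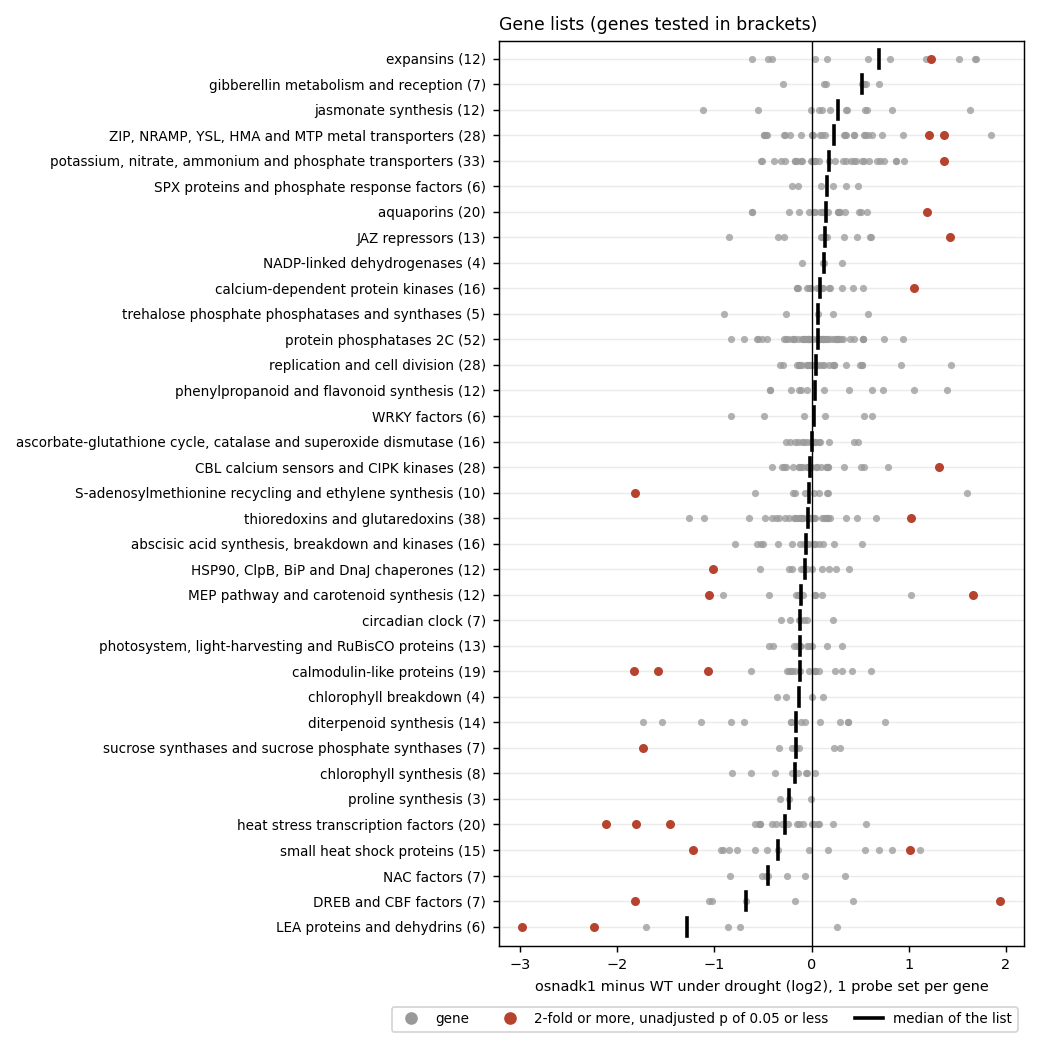
Difference of *osnadk1* minus WT under drought on the log2 scale (x axis) for each gene tested in 35 named families, 1 row per family with the number of genes in brackets, grey points for genes, red points for those 2-fold or more apart at an unadjusted p of 0.05, and a black bar at the family's median. The medians run from -1.28 for LEA proteins and dehydrins to 0.70 for expansins, most of them close to 0.

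The enzymes closest to NADP showed small differences. Of 4 NADP-linked dehydrogenases tested, which regenerate NADPH, 0 passed either threshold and the median was 0.12. The 6-phosphogluconate dehydrogenase gene 6PGDH2 was at 11.88, 11.95 and 11.74 in *osnadk1* and 11.40, 11.68 and 11.58 in WT, a difference of 0.31 ± 0.17 (limma, adjusted p = 0.63), and G6PGH1 at 12.49, 12.59 and 11.78 in *osnadk1* and 12.40, 11.71 and 11.62 in WT, 0.13 ± 0.09. The mutant arrays of 6PGDH2 lay just above those of WT, and those of G6PGH1 overlapped. Of 16 genes of the ascorbate-glutathione cycle, catalase and superoxide dismutase, 0 passed either threshold, the median was 0.00 and the differences ran from -0.26 to 0.48. Ascorbate peroxidase APX4, which removes hydrogen peroxide with ascorbate, was at 12.64, 12.63 and 12.84 in *osnadk1* and 12.37, 12.18 and 12.29 in WT, 0.43 ± 0.11 (limma, adjusted p = 0.206), without overlap. APX7 was at 11.71, 11.98 and 10.60 in *osnadk1* and 11.26, 10.51 and 9.96 in WT, with overlap. Of 38 thioredoxins, glutaredoxins and their reductases 1 passed the study's threshold, the NADPH-dependent thioredoxin reductase gene OsNTRA, at 8.91, 9.41 and 9.40 in *osnadk1* and 7.76, 8.69 and 8.83 in WT, 1.02 ± 0.33 (limma, adjusted p = 0.345). The proline synthesis genes P5CS1 and OsP5CS2, whose enzyme uses NADPH, were at 11.29, 11.08 and 11.53 in *osnadk1* and 11.38, 11.80 and 12.17 in WT and at 8.04, 7.17 and 7.80 in *osnadk1* and 8.16, 7.76 and 7.65 in WT. Their differences were -0.33 ± 0.16 and -0.23 ± 0.26, with overlapping groups.

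Proteins that guard other proteins during heat and drying were spread to both sides. Of 19 small heat shock proteins on the array, which hold unfolding proteins in solution, 15 passed the filter on low values. Limma called 0 of the 15 at an adjusted p of 0.05, the median was -0.34 (job medians -0.06 and -0.40), and 3 were higher and 6 lower without overlap, against 9.45% and 7.86% of all genes. HSP17.9A (Os03g0266300) was at 11.28, 11.19 and 11.53 in *osnadk1* and 12.61, 12.65 and 12.54 in WT, a clear gap of 1.01 between the closest arrays, and its difference of -1.22 ± 0.18 fell just short of the threshold (limma, adjusted p = 0.051). HSP16.9A went the other way, at 8.60, 7.91 and 8.47 in *osnadk1* and 7.13, 7.41 and 7.74 in WT, 1.01 ± 0.24 (limma, adjusted p = 0.188). Small heat shock genes have near-identical copies that a probe set may share, and the gene listed as HSP16.9A has HSP16.9B among its synonyms. Of 12 genes of HSP90, ClpB, BiP and DnaJ chaperones, DJC27, a DnaJ protein, was the 1 past the study's threshold, at 9.57, 9.52 and 8.22 in *osnadk1* and 10.05, 9.84 and 9.68 in WT, -1.02 ± 0.23 (limma, adjusted p = 0.186). Its mutant replicates 1 and 2 lay close under WT and replicate 3 far below.

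Heat stress transcription factors had 14 of 20 genes with a negative difference, a median of -0.28 (-0.07 in job A and -0.36 in job B), with 0 past an adjusted p of 0.05 in limma. Those past the study's threshold were 3, all lower and all of classes B and C, which lack the activator motif of class A. With all 26 probe sets of the family that were tested, 5 were lower and 1 higher at that threshold. HSFB2A (Os04g0568700) was at 7.87, 7.37 and 6.89 in *osnadk1* and 9.69, 9.65 and 8.42 in WT, -2.11 ± 0.33 (limma, adjusted p = 0.0644), -2.08 in job A and -2.15 in job B. HSFB2B was at 7.51, 6.14 and 5.72 in *osnadk1* and 8.05, 8.81 and 7.40 in WT, -1.81 ± 0.63 (limma, adjusted p = 0.374), and HSFC2A at 4.37, 5.56 and 6.25 in *osnadk1* and 6.43, 7.46 and 7.96 in WT, -1.46 ± 0.35 (limma, adjusted p = 0.203). The arrays of HSFB2A and HSFC2A did not overlap between genotypes, and those of HSFB2B did. Under normal growth HSFB2A and HSFB2B had positive differences, 0.92 ± 0.33 and 1.97 ± 0.63, and the shift between conditions had an adjusted p of 0.165 and 0.394 in limma.

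LEA proteins and dehydrins, hydrophilic proteins that build up in drying tissue, had the lowest median, -1.28 over the 6 of 8 genes that passed the filter (-1.12 in job A and -1.73 in job B), with 5 negative and 0 past an adjusted p of 0.05 in limma. LEA19 was at 1.60, 2.52 and 7.28 in *osnadk1* and 6.30, 8.32 and 9.64 in WT, -2.97 ± 1.01 (limma, adjusted p = 0.367). RAB16B was at 3.41, 2.64 and 7.90 in *osnadk1* and 5.03, 9.79 and 10.96 in WT, -2.24 ± 0.87 (limma, adjusted p = 0.449). Both were far higher in job B than in job A in each genotype, and in both *osnadk1* replicate 3 stood above WT replicate 1, so the genotypes overlapped. None of the 6 genes was without overlap. Sucrose synthase OsRSUS1 (Os03g0401300), which cleaves sucrose with UDP, likewise had its lower arrays in job A in each genotype but did not overlap, at 7.15, 7.13 and 8.44 in *osnadk1* and 8.98, 9.82 and 10.33 in WT, -1.74 ± 0.55 (limma, adjusted p = 0.329), and was the 1 of 7 sucrose synthase and sucrose phosphate synthase genes past the study's threshold. With all 8 probe sets of these sucrose genes that were tested, 2 were lower at that threshold. The trehalose phosphate phosphatase genes OsTPP2 and OsTPP10, of 5 trehalose genes, were at -0.90 ± 0.36 and 0.58 ± 0.52, at limma adjusted p of 0.452 and 0.823.

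**Figure D5:**
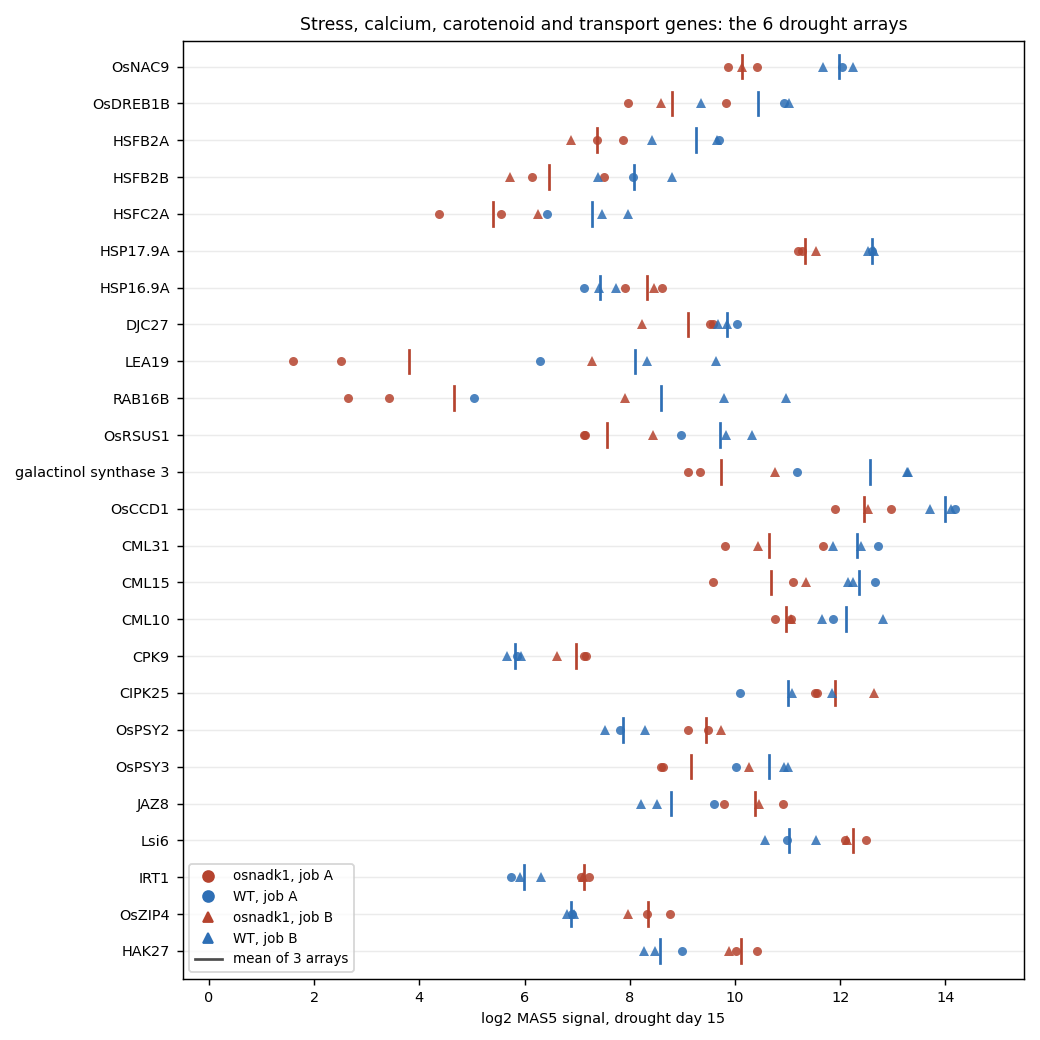
Log2 MAS5 signal on the 6 drought arrays (x axis) of 25 named genes for stress factors, protective proteins, calcium sensors, carotenoid synthesis and transport, 1 row per gene, with red for *osnadk1*, blue for WT, circles for job A, triangles for job B and a bar at the mean of 3 arrays. OsNAC9, HSP17.9A and OsCCD1 have the genotypes apart in both jobs, and LEA19 and RAB16B have the job A arrays far to the left in both genotypes.

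Of the stress factors that the study followed by quantitative PCR, OsNAC9 (Os03g0815100) had the widest gap between the genotypes, 1.25 log2 units. It was at 10.41, 9.86 and 10.12 in *osnadk1* and 12.03, 12.25 and 11.67 in WT, -1.86 ± 0.32 (limma, adjusted p = 0.0798), -1.90 in job A and -1.83 in job B. OsDREB1B (Os09g0522000), an activator of cold and dehydration genes, was at 9.83, 7.96 and 8.60 in *osnadk1* and 10.93, 11.02 and 9.36 in WT, -1.81 ± 0.65 (limma, adjusted p = 0.387). Its WT replicate 3 fell among the mutant arrays. Of 7 DREB and CBF genes it was the lower of 2 past the study's threshold, the other being CBF1 at 5.53, 4.93 and 5.59 in *osnadk1* and 2.95, 5.79 and 2.19 in WT, 1.94 ± 0.85 (limma, adjusted p = 0.519), below the array median on 3 of 6 arrays. Over the family the median came to -0.68, with -0.14 in job A and -0.81 in job B. OsWRKY42 was at 6.41, 4.96 and 5.34 in *osnadk1* and 6.75, 7.79 and 7.18 in WT, -1.60 ± 0.48 (limma, adjusted p = 0.296), without overlap. OsWRKY21, OsWRKY70, OsMYB and OsSAUR2 overlapped between genotypes, with differences of -0.80 ± 0.57, -0.29 ± 0.52, -0.89 ± 0.43 and -0.50 ± 0.60, at limma adjusted p of 0.578 or more. Under normal growth the same 4 were at -3.10, -1.88, -2.63 and -4.24, and OsMYB and OsSAUR2 passed the adjusted threshold there (limma, adjusted p = 0.0419 and 0.0243). OsDREB1B also passed it under normal growth, at -4.25 ± 0.65 (limma, adjusted p = 0.0292). All of these but CBF1 are in the study's lists of changed genes from the same arrays, and so give no independent evidence of a direction. The study's quantitative PCR used younger plants after a shorter drought. Under drought it reports OsNAC9, OsRSUS1, OsWRKY42 and OsMYB as raised in the mutant. It reports OsSAUR2, OsCCD1, OsCML16, OsDREB1B, OsWRKY70 and OsWRKY21 as lowered. The wording leaves unclear whether the reference is WT under drought or the mutant under normal growth. These directions therefore cannot be set against the array differences here. The study's array list for drought has OsNAC9, OsRSUS1 and OsWRKY42 as lower in the mutant than in WT.

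Other members of these families were below the study's threshold. Of 6 WRKY genes grouped by name, OsWRKY71 at -0.83 ± 0.33 and OsWRKY62 at 0.62 ± 0.43 were without overlap and at limma adjusted p of 0.449 and 0.733. Of 7 NAC genes, 6 had a negative difference and the median was -0.45 (job medians -0.30 and -0.30), with NAC45 at -0.84 ± 0.42 and NAC010 at -0.51 ± 0.98, both overlapping.

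Several calcium sensors were lower in the mutant without passing the adjusted threshold. Of 19 calmodulin-like genes 3 passed the study's threshold, all lower, 5 were lower without overlap and 0 higher, against 7.86% and 9.45% of all genes, and 0 passed an adjusted p of 0.05 in limma. CML31 was at 11.68, 9.82 and 10.44 in *osnadk1* and 12.71, 12.40 and 11.86 in WT, -1.83 ± 0.60 (limma, adjusted p = 0.358). CML15 was at 11.11, 9.57 and 11.36 in *osnadk1* and 12.66, 12.25 and 12.16 in WT, -1.58 ± 0.66 (limma, adjusted p = 0.486), and CML10 at 11.06, 10.76 and 11.07 in *osnadk1* and 11.87, 12.82 and 11.66 in WT, -1.06 ± 0.29 (limma, adjusted p = 0.257). In CML31 and CML15 *osnadk1* replicate 2 was the lowest of the 6 arrays. OsCML16 (Os01g0135700) was at 12.41, 11.91 and 12.44 in *osnadk1* and 12.85, 13.02 and 12.99 in WT, -0.62 ± 0.26 (limma, adjusted p = 0.477), and the EF-hand gene OsCCD1 (Os06g0683400) at 12.96, 11.89 and 12.52 in *osnadk1* and 14.18, 14.10 and 13.70 in WT, -1.57 ± 0.39 (limma, adjusted p = 0.211), both without overlap. The family's median was -0.12 (job medians 0.07 and -0.14), with 8 genes positive and 11 negative. Under normal growth CML31, CML15 and OsCCD1 had differences of -3.32 ± 0.60, -3.09 ± 0.66 and -3.09 ± 0.39, of which OsCCD1 passed the adjusted threshold (limma, adjusted p = 0.0139). OsCML16 passed it there too, at -1.79 ± 0.26 (limma, adjusted p = 0.0243). Calcium-dependent protein kinases, which read the same signal, had 1 of 16 past the study's threshold, CPK9 (Os03g0688300), higher at 7.17, 7.12 and 6.62 in *osnadk1* and 5.86, 5.67 and 5.93 in WT, 1.05 ± 0.30 (limma, adjusted p = 0.276). Of 28 CBL sensors and CIPK kinases CIPK25 was the 1, at 11.56, 11.52 and 12.65 in *osnadk1* and 10.10, 11.09 and 11.85 in WT, 1.31 ± 0.42 (limma, adjusted p = 0.343), with overlap across jobs.

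Most ion transport genes had positive values, against 7412 of 14893 over all genes, and HAK27 was the 1 that passed an adjusted p of 0.05 in limma. Of 28 metal transporters of the ZIP, NRAMP, YSL, HMA and MTP families, 20 had a positive difference, and the median was 0.23 (job medians 0.17 and 0.13). Without overlap, 9 were higher (32.1%) and 3 lower (10.7%), against 9.45% and 7.86% of all genes. IRT1 (Os03g0667500), an iron uptake transporter, was at 7.07, 7.22 and 7.12 in *osnadk1* and 5.74, 5.90 and 6.31 in WT, 1.21 ± 0.52 (limma, adjusted p = 0.503), and the zinc transporter OsZIP4 (Os08g0207500) at 8.33, 8.76 and 7.96 in *osnadk1* and 6.90, 6.81 and 6.95 in WT, 1.36 ± 0.60 (limma, adjusted p = 0.527). Both separated the genotypes by over 0.7 log2 units. Of 33 potassium, nitrate, ammonium and phosphate transporters 22 were positive with a median of 0.18 (job medians 0.34 and 0.03), and of 20 aquaporins 15 with a median of 0.15 (job medians 0.13 and 0.04). The job B medians of both were close to 0. The aquaporin past the study's threshold was Lsi6 (Os06g0228200), a silicon channel that unloads silicon from the xylem in rice shoots, at 12.09, 12.49 and 12.12 in *osnadk1* and 10.98, 10.57 and 11.53 in WT, 1.19 ± 0.24 (limma, adjusted p = 0.12). The phosphate sensors OsSPX1 and OsSPX2 were at 0.36 ± 0.23 and 0.47 ± 0.28, overlapping.

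In the study's own group of transporters, picked on these arrays and so no independent evidence, 27 of 28 probe sets were tested, 24 were positive, and 4 rose and 1 fell at an adjusted p of 0.05 in limma. The 4 are HAK27, Os08g0562800, Os08g0520000 and Os01g0719600, and the 1 that fell is Os11g0256900, by annotation a methyltransferase. Its group of transcription factors had 25, of which 0 rose and 3 fell, Os06g0728700, Os01g0863300 and the F-box gene Os04g0571300. Its heat shock group had 10, 8 negative and 0 past that threshold, and its EF-hand group 4, all negative and 0 past it.

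Plastid pathways held a pair of opposite members. Of 12 genes of the MEP pathway and carotenoid synthesis 2 passed the study's threshold, both phytoene synthases, the first committed enzymes of carotenoid synthesis. OsPSY2 (Os12g0626400) was higher at 9.49, 9.10 and 9.73 in *osnadk1* and 7.80, 7.54 and 8.28 in WT, 1.66 ± 0.25 (limma, adjusted p = 0.0568), 1.49 in job A and 1.83 in job B. OsPSY3 was lower at 8.63, 8.59 and 10.26 in *osnadk1* and 10.02, 11.01 and 10.94 in WT, -1.06 ± 0.30 (limma, adjusted p = 0.267). The first had no overlap, and in the second *osnadk1* replicate 3 passed WT replicate 1. Of 8 chlorophyll synthesis genes 7 were negative, with a median of -0.17 (job medians -0.37 and -0.11). CHLH, a subunit of magnesium chelatase, was at 12.01, 11.64 and 11.41 in *osnadk1* and 12.85, 12.39 and 11.67 in WT, -0.82 ± 0.19 (limma, adjusted p = 0.188), and CAO, which makes chlorophyll b, at 10.16, 10.24 and 9.74 in *osnadk1* and 10.74, 10.54 and 10.33 in WT, -0.62 ± 0.11 (limma, adjusted p = 0.0869), without overlap. Photosystem, light-harvesting and RuBisCO genes had 10 of 13 negative and a median of -0.12, with LHCP at -0.44 ± 0.17 and OsPSAG at -0.40 ± 0.11. Chlorophyll breakdown genes had a median of -0.13 over 4, with NOL at -0.36 ± 0.13 and SGR at -0.27 ± 0.63. No gene of these 3 groups passed either threshold.

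Hormone genes gave few calls. Of 16 genes of abscisic acid synthesis, breakdown and kinases 0 passed the study's threshold, with the zeaxanthin epoxidase gene ABA1 at -0.57 ± 0.15 and the abscisic acid hydroxylase gene ABA8OX1 at -0.78 ± 0.47. WT replicate 2 stood apart in the latter, at 11.37 against 8.97 to 9.40 on the other arrays. Of 52 protein phosphatases 2C, which damp abscisic acid signals, 0 passed, with OsPP2C25 at 0.94 ± 0.27 without overlap and OsPP2C33 at -0.83 ± 0.83. With all 61 probe sets of that family that were tested, 1 was higher at the study's threshold. JAZ repressors of jasmonate signalling had 10 of 13 positive and a median of 0.14 (job medians 0.07 and 0.43). JAZ8 was at 9.79, 10.91 and 10.46 in *osnadk1* and 9.61, 8.52 and 8.21 in WT, 1.42 ± 0.43 (limma, adjusted p = 0.306), the 1 past the study's threshold and without overlap. Of 12 jasmonate synthesis genes 9 were positive, with allene oxide synthase AOS at -1.11 ± 0.53 and the lipoxygenase gene CM-LOX1 at 1.63 ± 0.88, whose job differences were 4.06 in job A and -0.80 in job B. Gibberellin genes had 6 of 7 positive and a median of 0.52 (1.06 in job A and -0.07 in job B), with the DELLA gene GAI at 0.69 ± 0.19 and 20ox2 at 0.56 ± 0.35. None of the abscisic acid, jasmonate or gibberellin genes passed an adjusted p of 0.05 in limma.

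Growth, clock and secondary metabolism genes completed the families. Expansins, which loosen cell walls, had the highest median, 0.70 over the 12 of 29 genes that passed the filter, its job medians being 0.05 in job A and 0.23 in job B. EXPB8, at 5.30, 5.12 and 5.83 in *osnadk1* and 2.91, 5.87 and 5.47 in WT, was the 1 past the study's threshold (1.23 ± 0.55, limma, adjusted p = 0.528). Its groups overlapped, with differences of 2.30 in job A and 0.17 in job B. Of 28 replication and division genes 0 passed, with CYCD3-2 at 1.44 ± 0.64 and CYCD6-1 at 0.92 ± 0.32. Circadian clock genes stayed close together, with CCA1 at 8.32, 8.18 and 8.04 in *osnadk1* and 8.63, 8.43 and 8.13 in WT, -0.31 ± 0.32, and OsPRR37 at -0.22 ± 0.11. Of 12 phenylpropanoid and flavonoid genes 0 passed, with PAL06 at 1.39 ± 0.81 and CAD6 at 1.05 ± 0.49, both without overlap. Of 14 diterpenoid genes 0 passed, and the diterpene cyclase genes DTS2 and CPS4 had differences of -1.73 ± 1.71 and -1.53 ± 0.95 with overlap. METK3 was the 1 of 10 genes of S-adenosylmethionine recycling and ethylene synthesis past either threshold. With all 16 probe sets of that family that were tested, 1 was higher and 2 were lower at the study's threshold.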

How the data were processed

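Total RNA from leaves was hybridised to Affymetrix rice genome arrays, 1 array per sample, and the authors deposited log2 values of MAS5 signal, each array scaled to a common level (the 2% trimmed mean of the linear signal is about 498 on every array). The MAS5 version is not given in the sources used here, and detection calls were not used. Of 57381 probe sets, 187 control and reporter probe sets were left out, and the 28852 at or above their own array's median on at least 3 of the 6 drought arrays were tested. limma 3.58.1 in R 4.3.3 was fitted with a mean-variance trend to all 12 arrays, with 4 group means and a job term within each treatment (6 residual degrees of freedom), and p-values were adjusted by the Benjamini-Hochberg method over all probe sets tested. The study's own threshold of 2-fold at an unadjusted p of 0.05 was a further rule. The fit was tested on simulated data, and tables and plots were made with Python 3.11.15, pandas 2.3.3 and matplotlib 3.10.9.

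Groups came from the labels, which call the arrays biological replicates without naming plants or pots, and every p-value therefore reflects only how these arrays vary, which may be technical. All columns of values were mapped to a sample. Same-numbered arrays of the genotypes deviated from their group means with correlations of 0.26, -0.06 and 0.32, the replicate 2 arrays lying in different jobs. Arrays of 1 job with unlike numbers were at 0.21 in job A and 0.10 in job B. Job and replicate number are mixed here, so this check cannot tell whether the numbers pair the samples. The main fit used job and no pairing. Probe sets were named through GEO's platform table (22436 with 1 gene, 95 with several, 34850 with none), through RefSeq gene names, and through the annotation columns, but no values, of the study's lists. The genes named are OsNADK1, every called probe set, the 12 highest and 12 lowest differences of 2-fold or more without overlap, up to 4 genes of each family past the study's threshold or else the 2 largest, and 10 genes the study followed by quantitative PCR. The members and lists were chosen with earlier results of these data known. A fold is given as "at least" where every array of a genotype was below its own median.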

Additional observations from a re-analysis of the deposited data

How the results depend on the processing

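The count of 29 probe sets called between the genotypes (18 higher and 11 lower in *osnadk1*) moved with the model. It was 18 (13 and 5) with no job term, 14 (11 and 3) with a job term shared by both treatments, 16 (11 and 5) with the 6 drought arrays alone and no block, 16 (11 and 5) without the mean-variance trend, and 11 (9 and 2) with the replicate number as a block in place of job, and 14, 14, 12, 13 and 11 of these calls, in that order, were among the 29. Centring each array on its median gave 42 with 17 lower, holding 18 of the 29 and losing 11, and a pseudocount of 16 gave 41 with 17 lower, holding all 29. The equal-variance test of the 6 drought arrays called 0 higher and 0 lower, with 2526 at an unadjusted p of 0.05 and a lowest adjusted p of 0.0522. The 6 drought arrays with job as a block gave 29, of which 16 were shared with the 29, and quantile normalization, no filter, a filter on the mean and a floor gave 32, 34, 31 and 36, each holding all 29. Leaving out 1 array at a time gave 7 to 30 called, 4 to 20 higher and 2 to 10 lower. Without an *osnadk1* array the filter on low values left 6 of the 29 untested, and 14 to 17 of the 23 tested lost the call.

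Against 410 higher and 322 lower at the study's threshold, no filter gave 1181 and 1050, the equal-variance test gave 240 and 155, and leaving out 1 array gave 195 to 900 and 242 to 512. Chosen after seeing the data, the arrays of job A alone gave 116 called (93 higher, 23 lower) and 1186 higher at the study's threshold, and those of job B alone gave 11 called (7 and 4) and 677 lower, so that 78.0% and 34.0% of the probe sets past that threshold were higher. The count of calls in limma for the shift between conditions, 0 with 2121 at an unadjusted p of 0.05, was also 0 with no job term, with a shared job term and with the replicate block, and was fitted under no other setting.

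Of single genes, 5 changed sign, none of them called. With job A alone OsWRKY70 was 0.70 and SGR 0.48, and with job B alone OsP5CS2 was 0.0921, 20ox2 -0.14 and CM-LOX1 -0.80. With 1 array left out they ran from -1.29 to 0.70 for OsWRKY70, -1.01 to 0.48 for SGR, -0.55 to 0.0921 for OsP5CS2, -0.14 to 1.27 for 20ox2 and -0.80 to 4.06 for CM-LOX1. The ends of these ranges are again the differences of 1 job. Without *osnadk1* replicate 3 only job A holds both genotypes under drought, and without WT replicate 1 only job B. The cause was not tested. The search of upstream sequence for motifs was not run, since no sequence was in the reference tables used here. With 3 arrays a genotype, split between jobs, differences in low signals are measured poorly.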
